A study of Mus musculus with 48 samples.

Results

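The comparison of 5xFAD with wild-type (WT) mouse brain was read over the whole probe set, from 11 of the 16 columns of the deposited table, WT-1 to WT-6 and 5xFAD-1 to 5xFAD-5. Each column holds a signal for 19962 probe targets and for 1 negative control probe, NegProbe-WTX. RNA was measured by GeoMx digital spatial profiling, in which gene-specific probes bind a tissue section, light releases their tags from a chosen area, and the tags are sequenced. 5xFAD mice carry mutant human transgenes, APP among them, under the neuronal Thy1 promoter and deposit amyloid, and WT mice carry none. Sections were cut frozen from fixative-perfused brain, and areas were picked by immunofluorescence for TMEM119, a microglial protein, and GFAP, an astrocyte protein. The headings name no marker, so the columns were taken as TMEM119-positive areas from the study's design text. GFAP-positive areas and the APP group were not analysed here, and 5xFAD-LynKO values, from 5xFAD mice crossed with a Lyn knockout, stand beside a few results only. Neither age nor sex, nor which columns share an animal or a brain slice, is given in the sources used here. Several areas were taken per slice, so every p-value below is over areas and is too small where areas share an animal.

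Microglia are the resident macrophages of the brain. In mice that deposit amyloid, microglia at plaques are known for a disease-associated programme of Trem2, Apoe, Cst7 and lysosomal protease genes, and nearby astrocytes are known for raised Gfap. In a probe assay each target also collects unspecific binding. NegProbe-WTX has no target in the mouse transcriptome and stands for that background, so a target at its level shows little signal of its own, and a fold change there is compressed.

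The table was scaled by genotype: the deposited column median was 86.7 in every WT column and 159 in every 5xFAD column. Dividing each column by its median removed a shift of 0.89 on the log2 scale, and all differences below are relative to it. On the deposited scale every smaller fall turns into a rise by that shift. Whole steps in the values implied total counts of 1194199 to 2548495 in WT and 3205260 to 4148602 in 5xFAD, so the WT columns were the shallower ones. The microglial label rested on few targets. Tmem119 itself lay at 0.847 to 1.09 times NegProbe-WTX in WT and 0.578 to 0.819 times in 5xFAD. Of 24 pan-microglial and myeloid genes 6 were above background, against 15 of 16 pan-neuronal genes, where above background means a mean of at least 1.5 times NegProbe-WTX with both genotypes weighted equally. No target of any kind was at 0 in any column, the smallest value being 9 steps. A value over 0 therefore does not show that a marker was detected. Passing the limit of 1.5 times does not show it either. It was passed by 30 of 187 vomeronasal and 8 of 929 olfactory receptors of the nose, and by 2336 of all 19960 targets. In such areas fewer cells of a type and less RNA per cell cannot be told apart.

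Signal rose less far above background in 5xFAD than in WT. The number of targets at more than 2 times NegProbe-WTX was 975, 1670, 1205, 789, 1018 and 612 in WT-1 to WT-6, and 367, 509, 298, 793 and 329 in 5xFAD-1 to 5xFAD-5. All 5xFAD columns except 5xFAD-4 lay below every WT column. The mean was 1045 ± 367 targets (SD, n = 6) in WT and 459.2 ± 203 (SD, n = 5) in 5xFAD (exact two-sided permutation test, p = 0.0130). NegProbe-WTX stood at 0.859 to 0.918 of the column median in WT and 0.933 to 0.957 in 5xFAD, with no overlap. This difference had p = 0.00433 in the exact two-sided permutation test, the smallest that 6 against 5 columns can give. The spread of each column was narrower in 5xFAD at both ends. Its 5th percentile was 0.686 of the median against 0.627 in WT (exact permutation p = 0.00866), and its 99th percentile was 2.27 against 2.83 times the median (exact permutation p = 0.0173). Over the 10 column measures compared, which overlap in what they count, the Benjamini-Hochberg adjusted value was 0.0192 for the 99th percentile and 0.0162 for the other three. Columns of the crossed 5xFAD-LynKO group ranged from 121 to 1032 targets at more than 2 times NegProbe-WTX.

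**Figure D1:**
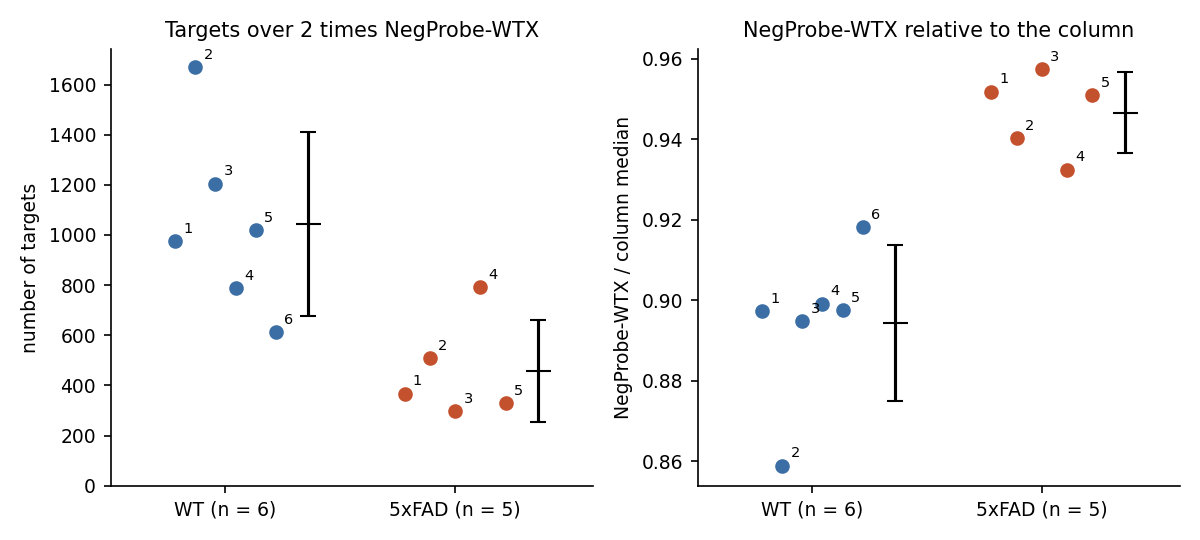
Number of targets at more than 2 times NegProbe-WTX and NegProbe-WTX relative to the column median, 1 numbered point per column, with group means and SD (bars). WT columns lie between 612 and 1670 targets and 5xFAD columns between 298 and 793.

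Over all targets, 2538 of 19960 (12.7%) were called in either direction at a Benjamini-Hochberg adjusted p under 0.05 in limma. The 2 genes whose proteins picked the areas are not counted. Of these, 975 (4.88%) were higher in 5xFAD and 1563 (7.83%) were lower. The calls were small: 83 reached 1.5-fold, 73 of them lower, and 6 reached 2-fold, all lower, namely Ctsd, Ppp1r1b, Cst3, Hpca, Apoe and C1qc. Ppp1r1b was high in WT-5 and WT-6 and in no other column compared, as given below. Almost all rises lay at background, with 966 of the 975 (99.1%) under 1.5 times NegProbe-WTX and 416 whose 5xFAD mean was at or below it. Most falls lay under 1.5 times NegProbe-WTX too, 1169 of the 1563 (74.8%). So did most targets, as 2336 of all 19960 were above background. Among 2336 above-background targets 9 were called higher (0.385%) and 394 lower (16.9%). Single columns moved these numbers. Leaving out 5xFAD columns 1, 2, 3 or 5 took the calls to 1617, 1318, 1079 and 1084, WT-1 and WT-3 together to 1265, and leaving out 5xFAD-4 raised them to 3497. The above-background falls then numbered 238, 241, 160, 176, 160 and 620 in the same order. Values that did not overlap between the groups were rarer than calls. The 5xFAD columns all lay above all WT columns for 438 targets (2.19%) and all below for 580 (2.91%). Among above-background targets these were 7 (0.3%) and 137 (5.86%).

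Reading each target against NegProbe-WTX changed the balance. With columns scaled on NegProbe-WTX, 391 targets (1.96%) were called higher and 3003 (15%) lower. With NegProbe-WTX subtracted from the above-background targets and each column centred again on these targets, 10 (0.428%) were called higher and 34 (1.46%) lower. All 34 were also lower in the unsubtracted reading. They held C1qc, Hpca, Fkbp1a, Rpl27 and Trf beside the genes described below.

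The direction of the difference followed how far a target stood above background. Targets under 0.8 times NegProbe-WTX had a median log2 difference (5xFAD minus WT) of 0.12 over 1639 targets, and 9.64% of them were called higher. The median was 0.04 over the 3276 targets at 1 to 1.1 times NegProbe-WTX. It was -0.13 over 1736 targets at 1.5 to 2 times, of which 15.9% were called lower. At 2 to 3 times it was -0.23 over 472 targets (18.9% lower), and at 3 to 5 times -0.41 over 103 targets (27.2% lower). Among the 25 targets at 5 times or more the median was -0.51 with 1 fall, that of Cst3. There the variance model mattered: limma's mean trend assigns abundant targets a large variance, and without it 13 of the 25 were called lower, against 45 in place of 28 at 3 to 5 times. With NegProbe-WTX subtracted the medians of the 4 highest ranges were 0.03, -0.01, -0.13 and -0.13. These values were centred on the above-background targets, which make up the 4 ranges and whose median-scaled median was -0.16. The centring therefore holds their joint median near 0, and only the order of the ranges can be compared with median scaling. After quantile normalization, which gives every column the same distribution, they were 0.01, 0.01, -0.00 and 0.10. A difference in the shape of whole columns and a difference of a single gene cannot be told apart by median scaling alone, so genes below are given in several readings.

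**Figure D2:**
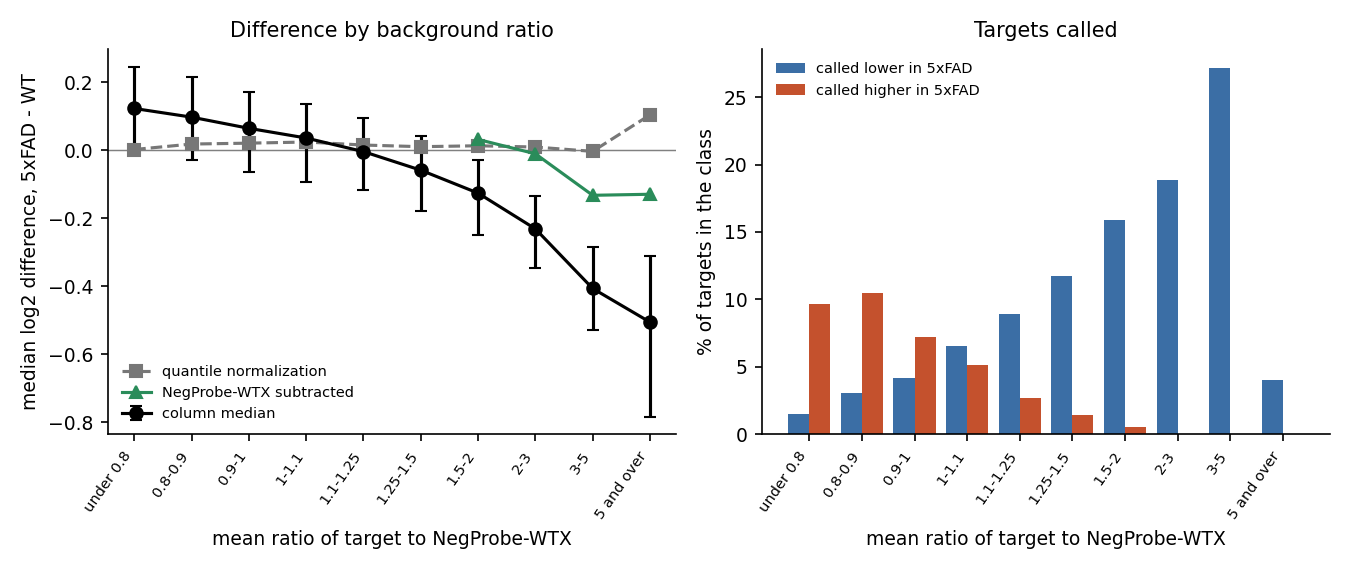
Median log2 difference, 5xFAD minus WT, of targets grouped by their mean ratio to NegProbe-WTX, after median scaling (bars, lower to upper quartile), after subtraction of NegProbe-WTX and after quantile normalization, and the percent of each class called with median scaling. After median scaling the medians run from 0.12 under 0.8 times NegProbe-WTX to -0.51 at 5 times or more. Subtracted values are centred on the above-background targets.

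The difference also followed the place of a target in the table, whose rows run in alphabetical order. Among background-level targets, those with symbols beginning T to Y had a median log2 difference of -0.23 (2108 targets, 36.5% called lower and 0.901% higher). Targets beginning N or O had a median of 0.14 (1791 targets, 14.3% called higher), and all targets outside T to Y one of 0.05. The change was abrupt at some places and more gradual at others. Over 40 background-level targets on each side, the median went from -0.24 up to Zfp111 to 0.09 from Zfp113 on. Similar steps stood between Hic1 and Hic2 (0.15 to -0.02) and between Ino80c and Ino80d (-0.29 to 0.10).

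The median log2 level of the T to Y targets was 0.13, 0.17, 0.15, 0.00, 0.15 and 0.14 in WT-1 to WT-6. In 5xFAD-1 to 5xFAD-5 it was -0.09, -0.14, -0.15, 0.04 and -0.13. WT-4 and 5xFAD-4 stood apart from their groups and against the direction of the rest. Their removal raised the calls to 3255 (without WT-4) and 3497 (without 5xFAD-4). In 5xFAD-LynKO the same level ran from -0.01 to 0.15. The stretch from T to Y holds 12.0% of the targets but 911 of the 1563 falls (58.3%), and 24 of the 34 falls after subtraction of NegProbe-WTX (70.6%). No source used here says how probes were pooled or filtered, and the part of any such step in these values was not tested.

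Each target was therefore also set against the median of its 80 nearest background-level neighbours in the table, 40 on each side, in the same column. This reading was added after the row pattern was seen. Relative to neighbours 186 targets were called higher (0.932%) and 316 lower (1.58%), and 29 of the falls (9.18%) began with T to Y. Of the 186 rises 66 (35.5%) began with T to Y, against 19 of 975 (1.95%) after median scaling, so relative to neighbours that stretch was over-represented among the rises. Of the 316 falls 247 were shared with the median-scaled reading, 78.2% of the one and 15.8% of the other. Of the 186 rises 119 were shared (64.0% and 12.2%). Above background 151 targets fell (6.46%). After quantile normalization 939 of all targets (4.7%) were called higher and 1473 (7.38%) lower, and above background 81 (3.47%) and 130 (5.57%). With the neighbours' level subtracted, 4 above-background targets rose (0.171%) and 3 fell (0.128%). The neighbour calls rested on single columns too. They numbered 110, 107, 48 and 84 without 5xFAD columns 1, 2, 3 or 5, 116 without WT-1 and WT-3, and 818 without 5xFAD-4. Without WT-1, WT-2 and WT-3 singly they were 267, 274 and 234.

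**Figure D3:**
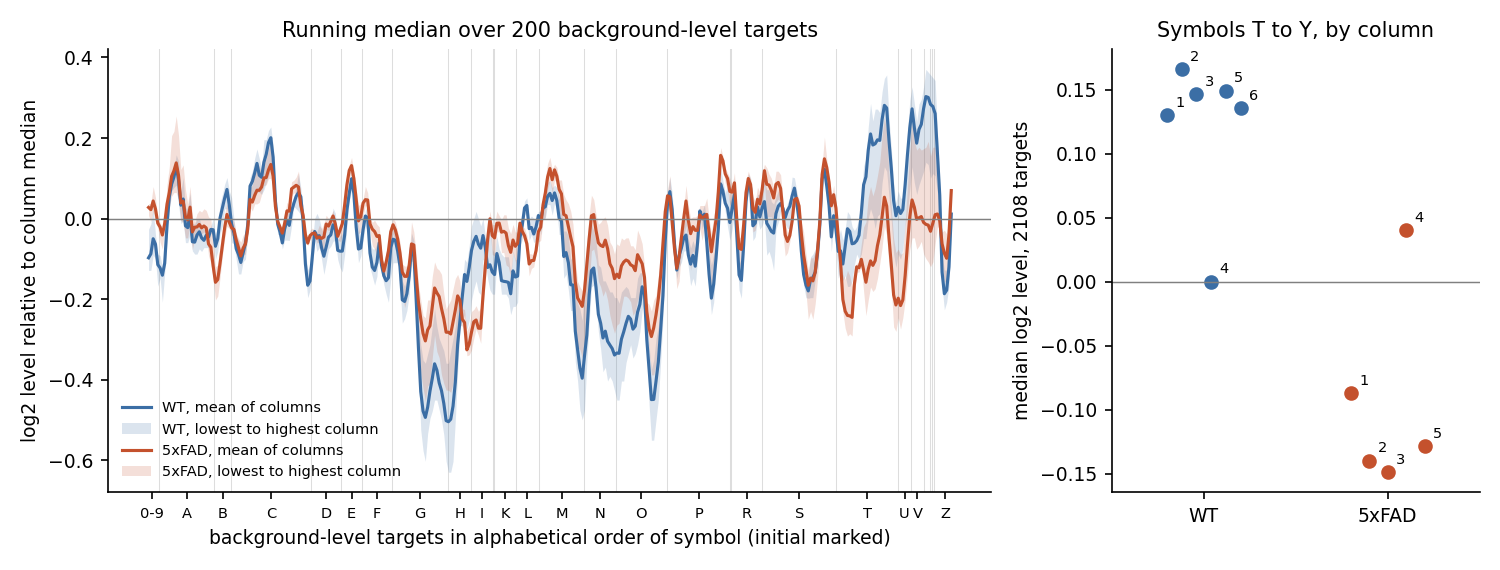
Left, running median over 200 background-level targets of the log2 level relative to the column median, along the alphabetical table, as the mean (line) and the lowest to highest column (band) of each genotype. Right, the median log2 level of the T to Y targets in each numbered column, where WT lies at 0.00 to 0.17 and 5xFAD at -0.15 to 0.04.

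Of the 2538 calls, 6 held in one direction in the median-scaled reading and after subtraction of either NegProbe-WTX or the neighbours. They were chosen by that agreement, so it supports nothing by itself. Ctsd, Rhob and Zdhhc24 were lower in 5xFAD, and 2310061I04Rik, Man2b2 and Rab11fip1 were higher.

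Ctsd encodes cathepsin D, an aspartic protease of the lysosome and a gene of the disease-associated programme. Its ratio to NegProbe-WTX was 10.7, 4.64, 10.1, 4.43, 4.11 and 2.90 in WT-1 to WT-6 and 1.47, 1.83, 1.90, 2.10 and 2.13 in 5xFAD-1 to 5xFAD-5. Every WT column lay above every 5xFAD column, and WT-1 and WT-3 were the highest. The means were 6.16 ± 3.4 (SD, n = 6) and 1.89 ± 0.26 (SD, n = 5). The log2 difference was -1.47 with an SE of 0.24 (limma adjusted p = 0.00144), or 2.76-fold lower. It was -1.44 relative to neighbours (adjusted p = 0.00562), -1.79 after NegProbe-WTX subtraction (adjusted p = 0.0322) and -1.0 without WT-1 and WT-3 (adjusted p = 0.0052).

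Rhob encodes a small GTPase of endosomes and the actin skeleton, and its transcript is counted among those of homeostatic microglia. Ratios to NegProbe-WTX were 3.19, 3.27, 2.66, 2.68, 2.73 and 2.18 in WT and 1.43, 1.85, 1.62, 1.79 and 1.59 in 5xFAD. The groups did not overlap, and no WT column stood far from the others. The log2 difference was -0.66 with an SE of 0.11 (limma adjusted p = 0.00144), -0.63 relative to neighbours (adjusted p = 0.00588), and -0.62 without WT-1 and WT-3. Zdhhc24 belongs to the DHHC family, whose members attach palmitate to proteins. It gave 2.61, 2.84, 2.21, 1.83, 2.21 and 2.41 times NegProbe-WTX in WT and 1.35, 1.09, 1.05, 1.6 and 1.24 times in 5xFAD, again without overlap. Its log2 difference was -0.81 (limma adjusted p = 0.000427), and -0.61 relative to neighbours (adjusted p = 0.00434), which themselves moved by -0.20.

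The 3 rises were smaller. The ratios of 2310061I04Rik, a gene known by its clone name, were 1.73, 1.83, 1.75, 1.8, 1.86 and 1.38 in WT and 2.14, 2.15, 2.28, 2.06 and 2.20 in 5xFAD. All 5xFAD columns lay above all WT columns, with WT-6 the lowest of these. The log2 difference was 0.42 (limma adjusted p = 0.00697), but relative to neighbours it was 0.30 and missed the threshold (adjusted p = 0.0794). Man2b2, an alpha-mannosidase that trims glycans, gave 1.52 to 1.82 times NegProbe-WTX in WT and 1.84 to 2.02 times in 5xFAD. It differed by 0.31 (limma adjusted p = 0.0215), and by 0.32 relative to neighbours (adjusted p = 0.0504). Rab11fip1, an effector of the recycling-endosome GTPase Rab11, gave 1.36, 1.46, 1.45, 1.5, 1.4 and 1.41 in WT and 1.66, 1.65, 1.76, 1.79 and 1.73 in 5xFAD. Its difference of 0.35 (limma adjusted p = 0.00802) was 0.30 relative to neighbours (adjusted p = 0.0408).

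**Figure D4:**
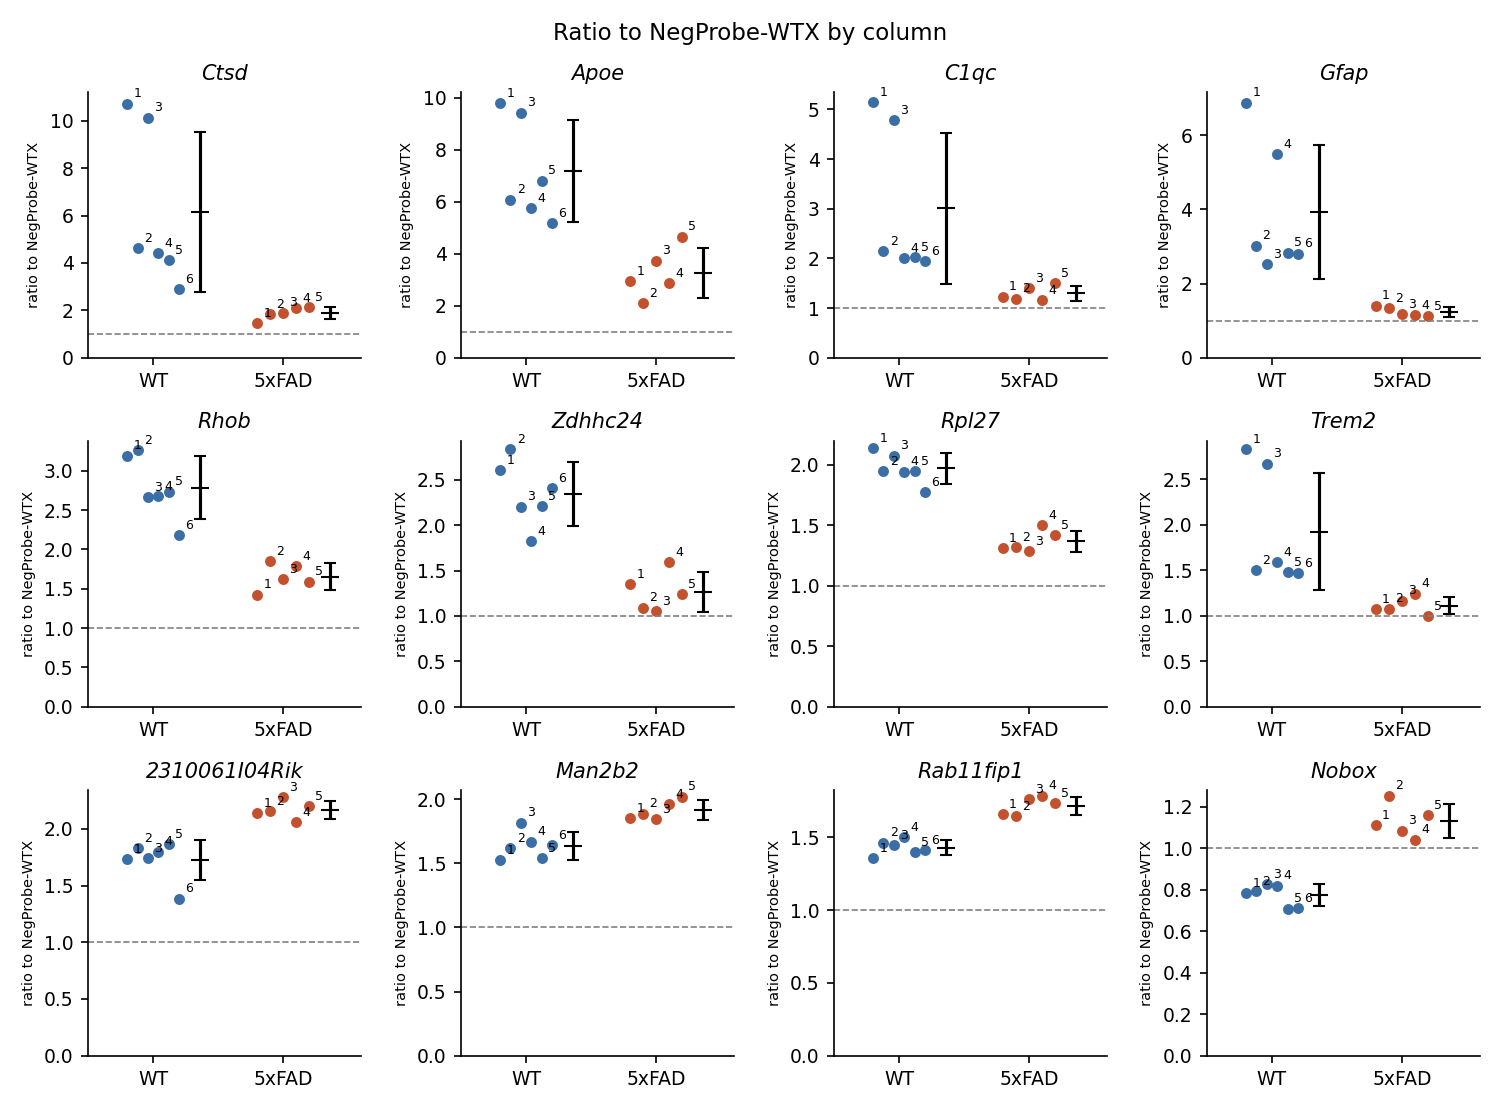
Ratio to NegProbe-WTX in each numbered column, with group means and SD (bars), of the 6 targets called after median scaling and after subtraction of either NegProbe-WTX or the neighbours, and of Apoe, C1qc, Gfap, Rpl27, Trem2 and Nobox. The dashed line marks NegProbe-WTX, and the 5xFAD points of Ctsd lie between 1.47 and 2.13 against 2.90 to 10.7 in WT.

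Promoters are shown for the 4 of these 6 genes that RefSeq lists for GRCm38.p6, to set the genes that fell beside one that rose. Each runs 5′ to 3′ over 300 bases around the start of the gene. Capitals mark the E-box CACGTG, which reads the same on both strands, and the CCAAT box on either strand (CCAAT or ATTGG). Ctsd lies at chr7:142387778-142388077 on the minus strand, Rhob at chr12:8499960-8500259 on the minus strand, Zdhhc24 at chr19:4878418-4878717 on the plus strand (the first of 2 listed starts) and Man2b2 at chr5:36830600-36830899 on the minus strand.
Ctsd: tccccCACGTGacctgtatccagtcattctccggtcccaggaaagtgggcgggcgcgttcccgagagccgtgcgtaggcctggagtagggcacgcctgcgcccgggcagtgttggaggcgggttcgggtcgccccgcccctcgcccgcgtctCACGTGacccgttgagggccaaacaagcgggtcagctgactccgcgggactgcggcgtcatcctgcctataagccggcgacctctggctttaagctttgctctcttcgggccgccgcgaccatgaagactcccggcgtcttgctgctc
Rhob: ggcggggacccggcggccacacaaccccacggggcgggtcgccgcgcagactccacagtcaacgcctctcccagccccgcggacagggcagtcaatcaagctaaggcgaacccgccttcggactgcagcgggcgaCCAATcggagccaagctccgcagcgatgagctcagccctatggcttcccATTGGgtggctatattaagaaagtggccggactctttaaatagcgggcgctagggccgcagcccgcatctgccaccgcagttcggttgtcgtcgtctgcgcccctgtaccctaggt
Zdhhc24: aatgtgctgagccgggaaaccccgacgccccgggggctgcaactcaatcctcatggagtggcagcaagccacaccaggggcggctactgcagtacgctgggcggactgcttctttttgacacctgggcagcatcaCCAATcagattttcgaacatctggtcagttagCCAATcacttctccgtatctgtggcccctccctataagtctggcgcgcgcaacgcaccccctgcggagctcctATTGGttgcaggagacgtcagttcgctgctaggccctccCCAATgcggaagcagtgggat
Man2b2: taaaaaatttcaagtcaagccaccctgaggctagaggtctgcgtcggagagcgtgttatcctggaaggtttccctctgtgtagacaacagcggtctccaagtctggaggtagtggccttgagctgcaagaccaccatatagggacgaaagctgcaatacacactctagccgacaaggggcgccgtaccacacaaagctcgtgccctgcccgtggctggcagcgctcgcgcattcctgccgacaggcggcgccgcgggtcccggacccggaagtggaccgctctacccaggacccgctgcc

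The Ctsd window held 2 E-boxes and no CCAAT box, the Rhob window 2 CCAAT boxes, the Zdhhc24 window 4 CCAAT boxes, and the Man2b2 window neither motif. Of 32851 listed promoters, 7.15% hold the E-box and 37.4% the CCAAT box. These matches describe the letters of the windows only.

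Genes of microglia were lower in 5xFAD wherever they passed, apart from Cybb, a background-level oxidase subunit that was called higher. In the pan-microglial and myeloid list of 24 genes, 6 were called lower (25%, beside 7.83% of all targets). The 1 higher call is 4.17%, beside 4.88% of all targets. Of the 6 above background 4 fell, beside 16.9% of all above-background targets. The list median was -0.10 against 0.01 over all targets. Relative to neighbours 4 genes fell and after quantile normalization 6, beside 1.58% and 7.38% of all targets. C1qa and C1qc encode chains of the complement trigger C1q. C1qc stood at 5.15, 2.14, 4.78, 2.01, 2.03 and 1.95 times NegProbe-WTX in WT and 1.23, 1.19, 1.41, 1.16 and 1.51 times in 5xFAD. WT-1 and WT-3 were again the highest, and the groups did not overlap. C1qc differed by -1.0 (limma adjusted p = 0.00319), by -2.03 after NegProbe-WTX subtraction (adjusted p = 0.0483), and by -0.57 without WT-1 and WT-3. C1qa differed by -0.95 (limma adjusted p = 0.00561) but not past the threshold after subtraction (adjusted p = 0.0754). Its level was 1.54 to 4.65 times the column median in WT and 1.03 to 1.74 in 5xFAD. The groups thus overlapped, with WT-1 and WT-3 the highest. The lysosomal protease Ctss differed by -0.93, with WT-1 at 5.75, WT-3 at 4.69 and the other WT columns at 1.77 to 2.04 times NegProbe-WTX. In multiples of the column median Ctss was 1.04 to 1.64 in 5xFAD, where 5xFAD-5 lay above the 1.52 of WT-2.

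Members that did not pass were Aif1, encoding the microglial protein IBA1, and Csf1r, the receptor on which microglia depend for survival. Aif1 was 2.21 ± 0.32 times NegProbe-WTX in WT (SD, n = 6) and 1.85 ± 0.44 in 5xFAD (SD, n = 5; limma adjusted p = 0.340), with overlapping columns. Csf1r gave 1.46 to 3.09 in WT and 1.16 to 1.67 in 5xFAD (limma adjusted p = 0.0714). Of 19 homeostatic genes, Tmem119 not counted, 4 fell (21.1%, beside 7.83% of all targets), Fcrls, Rhob and Tgfbr1 among them, and none rose. Their median was -0.11, or 0.01 after quantile normalization, when 3 were called lower. Tmem119, by whose protein the areas were picked, differed by -0.42 (limma adjusted p = 0.00968). Its neighbours moved by -0.23, and relative to them the difference was -0.19 (adjusted p = 0.327). Lyn, the Src-family kinase knocked out elsewhere in the series, differed by -0.09 (limma adjusted p = 0.513), with a 95% interval of -0.28 to 0.09. Its level was 0.982 to 1.35 times the column median in WT, 1.03 to 1.18 in 5xFAD and 1.03 to 1.23 in 5xFAD-LynKO. The signal was thus not lower in the knockout, and whether this target reads Lyn RNA above background was not tested.

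The disease-associated genes were also lower where they passed. Of 27 genes 13 fell (48.1%, beside 7.83% of all targets) and none rose, with a median of -0.34. After quantile normalization 8 fell with a median of -0.24, and relative to neighbours 7 fell. The summed level of the list, in multiples of the column median, was 41.5 to 89.8 in WT and 32.7 to 37.1 in 5xFAD. Only 7 of the 27 were above background, of which 5 fell. Trem2, the lipid-sensing receptor that drives the programme, gave 2.83, 1.51, 2.67, 1.59, 1.48 and 1.47 times NegProbe-WTX in WT. In 5xFAD it gave 1.07, 1.08, 1.17, 1.24 and 0.998 times, which is the level of NegProbe-WTX. Its difference of -0.65 (limma adjusted p = 0.00565) became -0.41 relative to neighbours, which had moved by -0.25, and was then not called (adjusted p = 0.113). Spp1, encoding osteopontin, gave 0.911 to 1.94 times NegProbe-WTX in WT and 0.615 to 0.716 in 5xFAD. Cst7, encoding the protease inhibitor cystatin F, gave 1.38 to 2.23 and 0.983 to 1.15. Both were called lower in the median-scaled and the neighbour reading, at log2 differences of -0.93 and -0.62 in the former. WT-1 and WT-3 were the highest for both genes. In multiples of the column median Spp1 was 1.74 and 1.71 there, against 0.818 to 1.33 in the other WT columns. Cst7 was 2 in both, against 1.27 to 1.51 in the other WT columns.

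Apoe encodes the main lipid carrier of the brain, made by astrocytes and by responding microglia. It stood well above background in both groups, at 9.77, 6.08, 9.42, 5.75, 6.81 and 5.18 times NegProbe-WTX in WT and 2.95, 2.09, 3.73, 2.86 and 4.65 times in 5xFAD. No 5xFAD column reached a WT column. Apoe differed by -1.06 (limma adjusted p = 0.0068) and by -1.09 relative to neighbours (adjusted p = 0.0258). After NegProbe-WTX subtraction the value was -0.94 and missed the threshold (adjusted p = 0.101). B2m, encoding the small subunit of class I MHC molecules, gave 1.83 to 4.45 in WT and 1.13 to 1.6 in 5xFAD (log2 difference -0.89, limma adjusted p = 0.00326). In multiples of the column median B2m was 3.91 in WT-1 and 3.98 in WT-3, against 1.68 to 2.10 in the other WT columns.

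Lysosomal genes were lower where they passed. Of 36 hydrolase and membrane genes 13 fell (36.1%, beside 7.83% of all targets) and none rose, with a median of -0.27. Relative to neighbours 11 of the 36 fell, and after quantile normalization 5. Of the 13 above background 8 fell, beside 16.9% of all above-background targets. Cst3, the cathepsin inhibitor cystatin C, was 17.7, 7.58, 13.4, 8.13, 8.12 and 6.99 times NegProbe-WTX in WT and 3.59, 3.51, 4.72, 3.89 and 4.68 times in 5xFAD. The groups did not overlap, and the difference was -1.18 (limma adjusted p = 0.0171), or -0.84 without WT-1 and WT-3. Lamp1, a lysosomal membrane protein, gave 2.35 to 3.28 in WT and 1.74 to 2.21 in 5xFAD (log2 difference -0.48, limma adjusted p = 0.00819). Psap, the precursor of the saposins, was abundant and did not pass. It gave 6.36 to 10.3 in WT and 4.63 to 6.96 in 5xFAD (log2 difference -0.51, limma adjusted p = 0.303, or 0.0111 without the mean trend). Several genes stand in both the disease-associated and the lysosomal list, Ctsd among them.

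Among 20 complement genes 5 fell (25%, beside 7.83% of all targets) and none rose, while the list median was 0.00. All 3 above background fell, beside 16.9% of all above-background targets. C4b, a complement component of glia, gave 3.04, 2.00, 1.44, 2.50, 1.48 and 1.90 times NegProbe-WTX in WT and 1.17, 1.07, 1.17, 1.13 and 1.12 times in 5xFAD, near background. Its difference of -0.73 (limma adjusted p = 0.00224) was -0.69 without WT-1 and WT-3. Of 30 genes of TLR4 and Src-family signalling, Tlr4 and Traf6 fell, a share of 6.67% that lies below the 7.83% over all targets. Tlr4, the receptor for bacterial lipopolysaccharide, was 1.17 to 1.6 times NegProbe-WTX in WT and 0.645 to 1.01 in 5xFAD (log2 difference -0.61, limma adjusted p = 0.00175). Its neighbours moved by -0.21, and the difference from them was -0.40 (adjusted p = 0.0351). Traf6, a ubiquitin ligase downstream of such receptors, differed by -0.44, and relative to neighbours by -0.22 (adjusted p = 0.198).

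The summed levels of astrocyte, oligodendrocyte and pan-neuronal markers were also lower or reached less high in 5xFAD, and their part in the microglial values was not tested. The summed level of 20 astrocyte markers was 46.0 to 64.9 in WT and 37.0 to 45.8 in 5xFAD. That of 16 oligodendrocyte markers was 22.5 to 56.5 and 20.4 to 26.9, and that of 16 pan-neuronal markers 37.7 to 110 and 34.7 to 69.4. The summed pan-microglial level was 27.8 to 44.9 and 24.9 to 27.8. Other lists lay mostly at background and did not follow. Above background were 1 of 7 blood genes, 0 of 10 of choroid plexus and ependyma, 2 of 18 brain endothelial and 1 of 13 mural and fibroblast genes. As the difference followed the background ratio, cell type and background level cannot be told apart here. Over all targets 4.88% were called higher and 7.83% lower. Of 7 blood genes 2 were called higher and none lower, with a median of 0.13 and a summed level of 6.16 to 7.11 in WT and 7.05 to 8.53 in 5xFAD. Of 10 genes of choroid plexus and ependyma 1 rose, Dynlrb2, with a median of 0.13 and a summed level of 9.11 to 10.3 and 9.23 to 10.2. Of 18 brain endothelial genes 2 fell (median -0.03) and of 13 mural and fibroblast genes 1 fell (median -0.00). Their summed levels were 19.0 to 20.3 against 18.7 to 19.5, and 13.1 to 14.3 against 12.6 to 13.9.

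Gfap was lower in 5xFAD, in areas picked for the other marker. It stood at 6.88, 3.02, 2.52, 5.49, 2.84 and 2.81 times NegProbe-WTX in WT and 1.41, 1.34, 1.17, 1.15 and 1.11 times in 5xFAD. Here WT-1 and WT-4 were the highest, not WT-3, and every 5xFAD column lay below every WT column. The difference was -1.48 (limma adjusted p = 0.000246) and -1.54 relative to neighbours (adjusted p = 0.000284). Of the 20 astrocyte markers 3 fell, Glul, Aldoc and Clu, and none rose, with a median of -0.15. All 3 are among the 11 above background, where 16.9% of all targets fell, and none was called after quantile normalization. Clu, encoding the extracellular chaperone clusterin, gave 3.00 to 4.33 in WT and 2.22 to 2.46 in 5xFAD (log2 difference -0.57, limma adjusted p = 0.00614). It was the one astrocyte marker to fall relative to neighbours. Glul, glutamine synthetase, differed by -0.82 (limma adjusted p = 0.0137). Slc1a2, the main glutamate transporter of astrocytes, gave 6.09 to 12.3 in WT and 3.10 to 6.82 in 5xFAD and was not called (log2 difference -0.78, limma adjusted p = 0.109, or 0.0102 without the mean trend). Of 25 reactive-astrocyte genes 3 fell (Vim, Serpina3n and Tgm1) and 4 rose (Osmr, Fbln5, Emp1 and Ptx3). These are 12% and 16%, beside 7.83% and 4.88% of all targets. The list median was -0.02, and none of the 3 above background was called.

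In the metallothionein and ferritin list of 10 genes 4 fell (40%, beside 7.83% of all targets), Mt1, Mt2, Ftl1 and Trf, each also relative to neighbours. All 4 are among the 7 above background, where 16.9% of all targets fell. Trf encodes transferrin, which is neither a metallothionein nor a ferritin, and is counted among the oligodendrocyte markers as well. Mt1, a zinc-binding protein, was 2.47, 2.13, 2.11, 2.72, 3.38 and 2.39 times NegProbe-WTX in WT and 1.64, 1.58, 1.6, 1.44 and 1.58 times in 5xFAD. The 5xFAD columns lay close together, below every WT column (log2 difference -0.59, limma adjusted p = 0.00284). Its neighbours moved by 0.12, so that relative to them it differed by -0.71. The iron store Fth1 varied more between WT columns, from 7.07 to 35.4, and was not called (log2 difference -1.32, limma adjusted p = 0.112, or 0.00859 without the mean trend).

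Of 16 oligodendrocyte markers 5 fell (31.2%, beside 7.83% of all targets) and none rose. Of the 7 above background 2 fell, beside 16.9% of all above-background targets. Trf, the iron carrier transferrin, was the one marker to fall relative to neighbours. Trf gave 3.58, 2.43, 2.00, 2.87, 1.48 and 1.98 times NegProbe-WTX in WT and 1.29, 1.28, 1.04, 1.44 and 0.974 times in 5xFAD. WT-1 and WT-4 were the highest. The difference of -0.86 (limma adjusted p = 0.00175) was -0.61 relative to neighbours (adjusted p = 0.0332).

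Neuronal genes were mixed. Of 16 pan-neuronal markers 2 fell, Rbfox3 and Uchl1, and none rose. Both are among the 15 above background, where 16.9% of all targets fell. The list median was -0.29, but 0.08 after quantile normalization, with 1 marker called higher and none lower. Snap25, a vesicle-fusion protein, gave 9.55, 25.5, 18.8, 12.3, 5.06 and 5.51 times NegProbe-WTX in WT and 9.50, 11.4, 3.11, 14.4 and 3.41 times in 5xFAD. The groups overlapped broadly, with WT-5, WT-6, 5xFAD-3 and 5xFAD-5 low together, and the difference of -0.55 was not called (limma adjusted p = 0.539). Nrgn, a calmodulin-binding protein of forebrain neurons, gave 2.55 to 37.0 in WT and 2.23 to 14.9 in 5xFAD, with the same 4 columns lowest.

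Of 27 calcium and calmodulin genes 7 were called lower (25.9%, beside 7.83% of all targets) and none higher. The falls held 6 of the 21 above background, where 16.9% of all targets fell. The list median was -0.34. After quantile normalization it was -0.20 with 2 falls, and relative to neighbours 5 fell. Hpca, the neuronal calcium sensor hippocalcin, was 3.25, 4.50, 3.30, 2.03, 5.59 and 3.56 times NegProbe-WTX in WT and 1.52, 1.84, 1.06, 2.21 and 1.16 times in 5xFAD. Here 5xFAD-4 lay above WT-4, so the groups overlapped, while the other columns did not. The difference was -1.15 (limma adjusted p = 0.00141) and -0.98 relative to neighbours (adjusted p = 0.0118). Fkbp1a, which binds calcium-release channels, gave 2.63 to 4.23 in WT and 1.63 to 2.08 in 5xFAD (log2 difference -0.75, limma adjusted p = 0.00158), and fell after NegProbe-WTX subtraction as well (adjusted p = 0.0289). Camk2b, a subunit of the synaptic calcium kinase, differed by -0.44 (limma adjusted p = 0.00992). Its abundant inhibitor Camk2n1 was not called, with 7.53 to 31.4 in WT and 2.27 to 10.1 in 5xFAD (limma adjusted p = 0.0971, or 0.0239 without the mean trend). Ppp1r1b, the striatal phosphatase regulator DARPP-32, was 10.2 in WT-5 and 7.10 in WT-6 against 1.21 to 2.77 in the other WT columns, and 0.956 to 1.46 in 5xFAD. Its difference was -1.26 (limma adjusted p = 0.0200). Penk, of the inhibitory neuron list, was high in the same columns and was not called. Its level was 15.7 and 7.99 times the column median in WT-5 and WT-6. In the other WT columns it was 1.64 to 2.47, and in 5xFAD 1.92 to 2.32. Brain region is not given for any column, and its part in these differences was not tested. The implied counts of WT-5 and WT-6 gave the lowest chi-square per degree of freedom of all column pairs, 1.16. WT-5 is the shallowest column, however, and the counts may hold an added amount. The log2 correlation of WT-5 with WT-6 was 0.841, against 0.907 for WT-2 with WT-3.

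Cytosolic ribosomal protein genes fell together after median scaling. Of 75 genes 49 were called lower (65.3%, beside 7.83% of all targets) and none higher, with a median of -0.40. After quantile normalization 9 were called lower with a median of -0.17, and relative to neighbours 28 fell. Of the 66 above background 47 fell, against 16.9% of all above-background targets. Their summed level was 149 to 207 times the column median in WT and 123 to 142 times in 5xFAD, without overlap. Rpl27 gave 2.14, 1.95, 2.08, 1.94, 1.94 and 1.77 times NegProbe-WTX in WT and 1.31, 1.32, 1.28, 1.5 and 1.42 times in 5xFAD. Neither group held a column far from the rest. Rpl27 differed by -0.45 (limma adjusted p = 0.00297) and was the one ribosomal gene called after NegProbe-WTX subtraction (adjusted p = 0.0336). Rps23 gave 2.34 to 3.79 in WT and 1.58 to 2.00 in 5xFAD (log2 difference -0.58, limma adjusted p = 0.00336). Rpl13, among the more abundant, gave 2.84 to 4.80 and 2.74 to 3.35 and was not called (log2 difference -0.31, limma adjusted p = 0.199). Whether a probe also binds near-identical copies of these genes was not tested.

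Mitochondrial and chaperone genes differed less. Of 86 nuclear genes of oxidative phosphorylation 18 fell (20.9%, beside 7.83% of all targets) and the median was -0.13. One gene rose, Cox6a2 (1.16%, beside 4.88% of all targets). Of the 41 above background 14 fell, beside 16.9% of all such targets. After quantile normalization 4 fell and 3 rose, with a median of -0.02. Relative to neighbours 8 fell and 1 rose (Uqcr10). Cox6c, a subunit of cytochrome c oxidase, gave 2.88 to 3.69 times NegProbe-WTX in WT and 1.63 to 2.69 in 5xFAD, with no overlap (log2 difference -0.61, limma adjusted p = 0.00443). Uqcrfs1, the Rieske iron-sulphur protein of complex III, differed by -0.51 (limma adjusted p = 0.00175). It lies among neighbours that moved by -0.23, and relative to them it was not called (adjusted p = 0.0700). Of 33 chaperones 10 fell (30.3%, beside 7.83% of all targets), 4 fell after quantile normalization, and none did so relative to neighbours. Of the 22 chaperones above background 4 fell, beside 16.9% of all such targets. Hspd1, the mitochondrial chaperonin, differed by -0.35, and by -0.18 relative to neighbours (adjusted p = 0.249). Of 39 proteasome subunits none fell and 1 rose, Psmd10, beside 7.83% and 4.88% of all targets. The list's median was -0.06, or 0.03 after quantile normalization.

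Antioxidant genes held 5 falls (20.8%, beside 7.83% of all targets) and 1 rise (Nqo1) among 24. Of the 7 above background 3 fell, beside 16.9% of all above-background targets. Sod1, which clears superoxide, gave 3.05 to 3.86 in WT and 1.86 to 2.43 in 5xFAD (log2 difference -0.55, limma adjusted p = 0.00632). Gpx4, which reduces lipid peroxides, gave 2.08 to 3.02 and 1.48 to 2.10 (log2 difference -0.50, limma adjusted p = 0.0074), and both fell relative to neighbours. Several other large falls lay between T and Y. Tomm20, the import receptor of the outer mitochondrial membrane, differed by -0.55 (limma adjusted p = 0.00175) among neighbours that moved by -0.26. Tufm, the mitochondrial elongation factor, differed by -0.55 (limma adjusted p = 0.00175) and its neighbours by -0.25. Neither was called relative to neighbours (adjusted p = 0.0628 and 0.0728), although both were called after NegProbe-WTX subtraction. Vwa1, an extracellular matrix protein, differed by -0.67 and kept a call relative to neighbours (log2 difference -0.37, adjusted p = 0.0258).

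**Figure D5:**
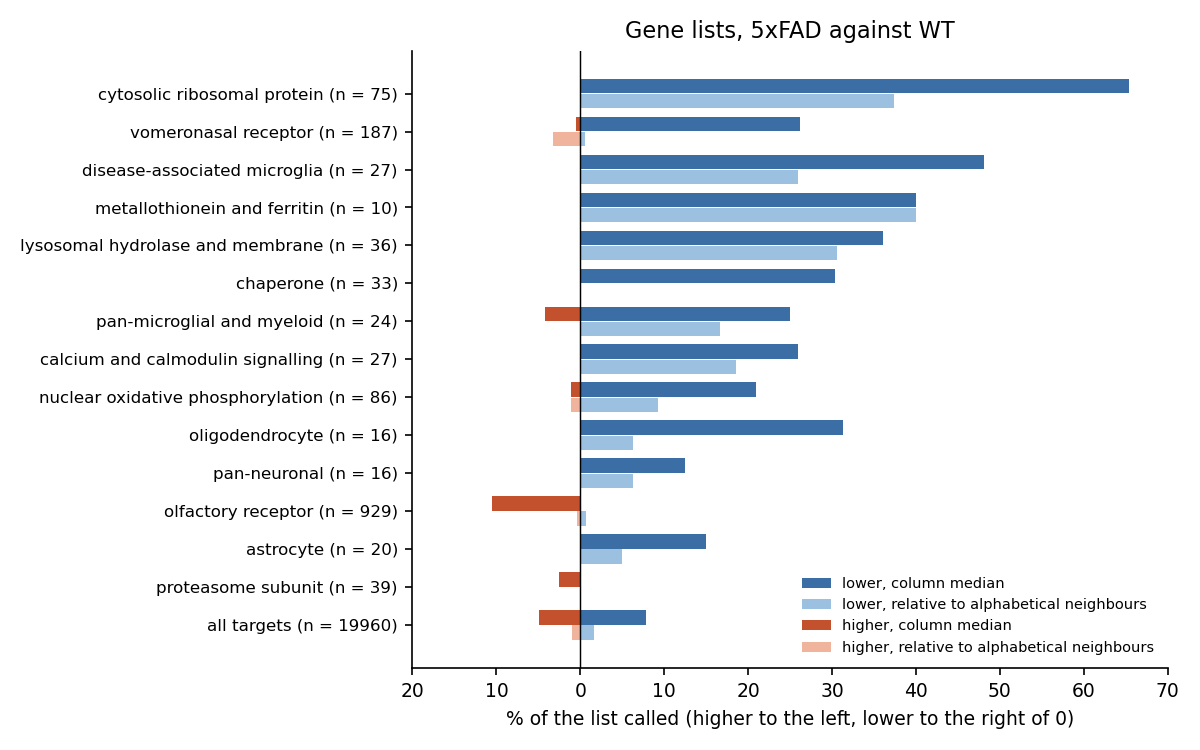
Percent of the members of each gene list shown, and of all targets, called lower (right of 0) or higher (left of 0) in 5xFAD, after median scaling and relative to alphabetical neighbours. Of 75 ribosomal genes 49 and 28 were called lower in these readings, and of 929 olfactory receptors 98 and 4 were called higher.

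Almost all rises were of targets with signal at background. Nobox, a transcription factor of oocytes, gave 0.775 ± 0.052 times NegProbe-WTX in WT (SD, n = 6) and 1.13 ± 0.081 in 5xFAD (SD, n = 5). The groups did not overlap, and the difference was 0.63 (limma adjusted p = 0.000427) and 0.43 relative to neighbours (adjusted p = 0.0102). Podxl, a sialomucin of podocytes and endothelium, gave 1.04, 0.824, 0.898, 0.914, 0.932 and 0.968 in WT and 1.03, 1.62, 1.47, 1.29 and 1.33 in 5xFAD. WT-1 and 5xFAD-1 were level, and the rest separated. Podxl differed by 0.61 (limma adjusted p = 0.00144), and by 0.73 relative to neighbours (adjusted p = 0.000638). Prdm14, a germ-cell regulator, showed the largest called rise, 0.67, at 0.554 to 0.858 in WT and 0.804 to 1.15 in 5xFAD. Npas4, an activity-induced transcription factor of neurons, gave 0.874 to 1.16 and 1.17 to 1.55 (log2 difference 0.49, limma adjusted p = 0.00237). Its neighbours moved by 0.26, and relative to them it was not called (adjusted p = 0.149). Cacna1f, a calcium channel subunit of the retina, gave 1.04 to 1.23 and 1.36 to 1.49, and was called in both readings.

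Among above-background rises P2rx5, an ATP-gated channel, gave 1.36 to 1.52 in WT and 1.58 to 1.73 in 5xFAD (log2 difference 0.29, limma adjusted p = 0.0239). Phf2, a histone demethylase, differed by 0.29 (limma adjusted p = 0.0335). Neither was called relative to neighbours (adjusted p = 0.126 and 0.262).

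Receptor families of the nose, which brain tissue mostly does not use, were called in opposite directions. Of 929 olfactory receptors 98 were called higher (10.5%, beside 4.88% of all targets) and 1 lower (Olfr560), with a median of 0.14. Their neighbours' median was 0.15, and relative to neighbours 4 rose, 6 fell and the median was 0.00. Of 187 vomeronasal receptors 49 were called lower (26.2%, beside 7.83% of all targets) and 1 higher (Vmn1r74). Their median was -0.21, with neighbours at -0.18. Relative to neighbours 6 rose, 1 fell (Vmn1r189) and the median was -0.02. Each family stands in an almost unbroken run of rows, so that for the median member of either family 100% of its 80 neighbours belong to the same family. A difference shared by the whole family is therefore taken out of the neighbour reading by construction, and a family difference and a row-position difference cannot be told apart here. After quantile normalization 78 olfactory receptors were called higher and 6 lower, and 2 and 45 vomeronasal receptors. Above background stood 8 olfactory receptors, none of them called, and 30 vomeronasal receptors. Of these 30, 7 were called lower, beside 16.9% of all above-background targets. Olfr1002 gave 0.934 to 1.15 times NegProbe-WTX in WT and 1.21 to 1.33 in 5xFAD (log2 difference 0.46, limma adjusted p = 0.00175), but was not called relative to neighbours (adjusted p = 0.0956). Whether probes for such families cross-react was not tested.

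Most of the abundant targets did not pass, and for several of them this turned on the variance model. Chic2, a palmitoylated membrane protein, gave 16.0, 28.7, 20.4, 17.0, 26.6 and 17.3 times NegProbe-WTX in WT and 17.0, 17.0, 14.9, 18.6 and 14.1 times in 5xFAD. The groups overlapped, and the difference of -0.25 was not called with the mean trend (limma adjusted p = 0.920) or without it (adjusted p = 0.202). Ubb, a polyubiquitin gene, gave 18.1, 27.0, 19.7, 19.2, 16.9 and 15.5 in WT and 7.51, 13.1, 12.1, 14.7 and 13.1 in 5xFAD, with no overlap. Its difference of -0.61 had a limma adjusted p of 0.721, and of 0.00941 without the trend. App, the amyloid precursor gene, gave 11.4, 16.8, 11.4, 11.0, 7.27 and 7.69 in WT and 6.48, 8.32, 5.88, 9.48 and 5.78 in 5xFAD. WT-5 and WT-6 lay within the range of 5xFAD. The difference was -0.49 (limma adjusted p = 0.488), with an interval of -1.41 to 0.42, and was called without the trend (adjusted p = 0.0463). Whether the mouse App probe also binds the human transgene was not tested. Gnas, a G protein subunit, gave 8.47 ± 4.0 (SD, n = 6) in WT and 7.14 ± 1.4 (SD, n = 5) in 5xFAD, with a log2 difference of -0.02 and an interval of -0.83 to 0.78.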

How the data were processed

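The deposited table holds a signal per probe target, with 19963 rows and 16 columns in 3 genotypes. How the authors aligned, counted, filtered and scaled it is not given in the sources used here, nor is a genome build. In every column 19959 rows were whole multiples of 1 step (tolerance 1e-06), which implied 55 to 118 counts for the median target in WT and 153 to 195 in 5xFAD. The smallest values were 9 to 66 steps, so some amount may have been added, and no count model was run.

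Each of the 11 columns was divided by its median over targets and taken to log2 with no pseudocount and no filter on low values. Groups were compared with limma 3.58.1 in R 4.3.3 (lmFit, eBayes with a mean trend), and p-values were adjusted by Benjamini-Hochberg over all 19962 targets, with calls under 0.05. Intervals are 95%. Column measures were compared by exact permutation tests in scipy 1.17.1. Subtracted values were held at or above 0.1 times the amount subtracted. Replicate columns carry numbers but no animals, so p-values measure the spread between areas. The steps were tested on simulated data.

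The genes named are the largest passing changes, the most abundant targets, and from each of 50 gene lists the passing members of smallest adjusted p and the abundant members that missed. Genes called after subtraction, and members listed by name where a count was 5 or fewer, were added once values were seen. A few genes are not reported here. Members and lists were chosen with earlier results of these data known. Alternatives were other scalings, pseudocounts, variance models, filters, a replicate block and columns left out. In a further one the column pairs of lowest chi-square were averaged (WT-5 with WT-6, 5xFAD-3 with 5xFAD-5).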

Additional observations from a re-analysis of the deposited data

Results flagged for a closer look

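Of 162 groups of 5 or 6 columns examined, 5 held 1 column far from the others, a gap that chance gives in about 1 group in 20. Levels here are multiples of the column median. WT-6 was the lowest for 2310061I04Rik at 1.27, where the other WT columns lay between 1.55 and 1.67, and WT-2 was the highest for Olfr1002 at 0.988 against 0.838 to 0.889. The remaining 3 were all in 5xFAD-4. Fcrls was lowest there at 0.830 (others 0.943 to 0.987), Lamp1 highest at 2.06 (others 1.66 to 1.73) and Traf6 highest at 1.68 (others 1.1 to 1.27).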

How the results depend on the processing

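The calls depended on single columns and on the background reading, and with 5 or 6 areas a group of unknown animals the counts are best read as orders of size. The 2538 targets called became 1265 without WT-1 and WT-3, and 1269 with the column pairs of lowest chi-square averaged. They became 4154 with array weights, 19858 as deposited, and 357 when above-background targets alone were fitted. They numbered 44 with NegProbe-WTX subtracted and 7 with neighbours subtracted, both over above-background targets only. Relative to neighbours they were 502, and 116 without WT-1 and WT-3. Leaving out 1 column gave 1079 to 3497, and relative to neighbours 110, 107, 48, 818 and 84 without 5xFAD-1 to 5xFAD-5 and 267, 274, 234, 611, 551 and 595 without WT-1 to WT-6. The 394 above-background falls became 34 and 3 with NegProbe-WTX or neighbours subtracted, 151 relative to neighbours, 160 without WT-1 and WT-3, 212 with columns averaged, 638 with array weights, 130 after quantile normalization, 691 scaled on NegProbe-WTX, 1 as deposited and 118 of 600 at a limit of 2 times NegProbe-WTX, with 160 to 620 when 1 column was left out. The 9 above-background rises became 4 without WT-1 and WT-3, with neighbours subtracted, with columns averaged, relative to neighbours and with the replicate block. They became 81 after quantile normalization, 17 with upper-quartile scaling, 2 scaled on NegProbe-WTX, 2246 as deposited and 0 at a limit of 2 times, with 2 to 11 when 1 column was left out. Upper-quartile scaling turned the split of all calls to 1633 higher and 1073 lower, against 975 and 1563. The cause of these shifts was not tested, beyond what the subtraction, the deposited shift and the smaller number of targets or columns fix by construction. The number in the column headings as a replicate block gave 1996 calls and 397 above-background falls, and same-numbered columns did not deviate together (correlations -0.36 to 0.09, 1 of 5 best matched to its own number). The difference in NegProbe-WTX over the column median ranged from 0.0452 to 0.0570 over columns left out, and it and the number of targets at more than 2 times NegProbe-WTX stayed under p = 0.05 wherever they were run. Over 79 named genes and 2073 alternative values 165 lost the threshold, 17 reached it, 21 turned sign without being called, and no called value turned sign. This count takes deposited-scale values relative to their 0.89 shift. With the shift left in, 51 of the 79 turned sign, 37 of the 63 called among them. Of 63 genes called, 44 passed relative to neighbours, 52 without WT-1 and WT-3, 54 with columns averaged and 51 to 63 with 1 column left out. Of the 44 above background, 21 passed with NegProbe-WTX subtracted and 7 with neighbours subtracted. Count models were not run, since the implied counts may hold an added amount. WT columns are the shallower, so low targets are less precise there.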
